A study of Mus musculus with 6 samples.

Results

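The genes described here carry cells through mitosis: the cyclins and kinases that start it, the motors and scaffolds of the spindle, the kinetochore that ties chromosomes to microtubules, the checkpoint that watches that attachment, the machinery of mitotic exit, and condensin and other proteins of mitotic chromosomes. They were chosen by name, as 54 mouse genes, and each was represented by the row of its RefSeq transcripts with the highest mean over all arrays. A row was found for 53 of the 54, out of 20263 genes with a row in the table. Kif14, a kinesin of cytokinesis, was not analysed here.

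The cells were neural stem cells from CD-1 albino mouse embryos at stage E14.5, kept dividing as neurospheres, free-floating clusters of stem cells and progenitors. All samples were nucleofected, that is, transfected by an electrical pulse. 3 biological replicates received a mimic of miR-128, a microRNA that these cells do not normally express, and 3 received miR-Control. RNA was taken after 72 h and each sample was hybridised to its own exon array, which gave a log2 expression value for each of 32025 transcript rows. The share of cells that took up the RNA, the dose and the number of embryos behind each culture are not stated in the labels. The comparison asks which transcripts differ once miR-128 is introduced.

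Most mitotic genes are transcribed in a wave late in the cell cycle and are shut off again in early G1 phase, so their RNA is abundant in dividing cells and scarce in resting ones. The wave is driven by MYB and FOXM1 acting with the MuvB complex, which reads a short promoter element called the cell cycle genes homology region (CHR), and it is commonly joined by NF-Y, which reads the CCAAT box. In the embryonic brain these genes mark cycling progenitors. MicroRNAs lower the level or translation of transcripts that pair with their seed, the bases near the 5′ end.

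Mature mouse miR-128-3p is shown with its seed, bases 2 to 8, in capitals. RefSeq lists the same mature miR-128-3p from both of its mouse genes, Mir128-1 at chr1:128202404-128202424 on the plus strand and Mir128-2 at chr9:112118644-112118664 on the minus strand (GRCm38.p6). The labels name the mimic only as miR-128, without its arm.
miR-128-3p: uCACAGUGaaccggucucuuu

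The promoters of mitotic genes were read because the genes are transcribed together. RefSeq promoter windows of 300 bases, 250 before to 50 after a listed start, were found for 43 of the 53 genes, as 47 windows. A CHR element, searched as TTTGAA or TTTAAA on both strands, was present in 34 of the 47 windows (72.3%) and in 27.6% of all 32851 promoter windows of that length. CCAAT, searched on both strands, was also present in 34 of the 47 windows and in 37.4% of all windows, and both together were present in 59.6% against 10.7%. An E2F-like site, TTTGGCGC or TTTCGCGC on either strand, was present in 3 of the 47 windows, those of Cdk1, Kif15 and Kif18a, and in 0.813% of all windows. A match is a run of letters and not a measured binding site. TTTAAA reads the same on both strands, and no matches overlap in the windows printed here.

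The windows of Anln, Kif22, Hmmr and Cdk1 are shown because, among genes with a window, Anln and Kif22 had the smallest p of those with a CHR match, Kif22 and Hmmr of those with a CCAAT match, and Cdk1 of those with an E2F-like match. All matches are in capitals. They lie at chr9:22389157-22389456 on the minus strand for Anln, chr7:127042371-127042670 on the minus strand for Kif22, chr11:40733388-40733687 on the minus strand for Hmmr and chr10:69352863-69353162 on the minus strand for Cdk1 (GRCm38.p6), and each reads 5′ to 3′ along its gene.
Anln: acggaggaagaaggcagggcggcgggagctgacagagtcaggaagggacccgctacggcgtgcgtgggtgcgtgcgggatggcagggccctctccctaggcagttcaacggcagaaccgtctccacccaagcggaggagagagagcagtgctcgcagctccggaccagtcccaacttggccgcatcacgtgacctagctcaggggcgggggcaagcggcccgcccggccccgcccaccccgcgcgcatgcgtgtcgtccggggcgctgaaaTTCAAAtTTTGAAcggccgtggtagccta
Kif22: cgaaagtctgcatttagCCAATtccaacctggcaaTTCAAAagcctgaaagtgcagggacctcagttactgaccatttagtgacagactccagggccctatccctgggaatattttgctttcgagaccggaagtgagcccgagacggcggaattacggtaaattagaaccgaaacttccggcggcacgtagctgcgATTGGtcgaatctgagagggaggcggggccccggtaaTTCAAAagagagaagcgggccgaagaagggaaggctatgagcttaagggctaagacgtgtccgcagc
Hmmr: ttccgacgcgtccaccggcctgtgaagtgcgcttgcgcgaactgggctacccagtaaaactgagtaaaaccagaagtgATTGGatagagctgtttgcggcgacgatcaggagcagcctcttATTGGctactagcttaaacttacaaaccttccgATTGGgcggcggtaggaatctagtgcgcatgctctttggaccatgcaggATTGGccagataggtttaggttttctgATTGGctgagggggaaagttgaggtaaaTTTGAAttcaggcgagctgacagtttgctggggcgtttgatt
Cdk1: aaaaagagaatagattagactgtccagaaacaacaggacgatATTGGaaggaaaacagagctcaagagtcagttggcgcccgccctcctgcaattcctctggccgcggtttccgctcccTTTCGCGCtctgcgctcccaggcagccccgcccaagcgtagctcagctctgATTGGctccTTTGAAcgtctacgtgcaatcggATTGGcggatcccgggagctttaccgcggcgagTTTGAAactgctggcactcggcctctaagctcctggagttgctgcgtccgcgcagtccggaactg
Hmmr has 5 CCAAT matches, all in the ATTGG orientation, whose first bases lie 172, 129, 96, 47 and 20 bases before the start. Cdk1 has 3 CCAAT and 2 CHR matches and an E2F-like match 131 bases before the start. In Anln both CHR matches lie within the 50 bases after the listed start, and no CCAAT match lies in its window. The 32 genes with a CHR match had a median log2 fold change of -0.18 and the 11 without one had -0.23, a difference that was not tested.

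Among the measured mitotic genes 46 of 53 had a lower mean with miR-128 and 7 a higher one, with a median log2 fold change of -0.18. The range ran from -0.79 for Anln to 0.15 for Smc4. Over all 32025 rows 43.2% were lower and the median log2 fold change was 0.02, and over the 16012 rows above the median level, where all 53 genes lie, 47.9% were lower and the median was 0.01. By limma with Benjamini-Hochberg adjustment no mitotic gene reached the threshold of 0.05, and neither did any other row (0.0% called), while 4 rows (0.025%), none of them mitotic genes, did so when only rows above the median level were tested. The lowest adjusted p among the mitotic genes was 0.201, for Anln. Fewer dividing cells and less of these RNAs in each dividing cell cannot be told apart in such bulk samples.

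At an unadjusted p under 0.05, 15 of the 53 (28.3%) were lower with miR-128 and 0 were higher, while 3.11% of all rows were lower and 4.04% higher at that threshold, and 5.13% of rows above the median level were lower and 4.16% higher. In 14 of the 53 (26.4%) the groups were separated, with the highest miR-128 array under the lowest control, against 4.87% of all rows and 7.34% of rows above the median level. These 14 were Anln, Kif22, Hmmr, Kif2c, Tpx2, Cdca8, Mki67, Nuf2, Cdc20, Cenpe, Cdk1, Cenpk, Nek2 and Spc24. In no gene did all miR-128 arrays lie above all controls, against 6.98% of all rows and 6.28% of those above the median level. All 53 were read from the same 6 arrays, so their number is not a number of independent observations. With 3 arrays a group, the 95% interval of a mitotic gene's log2 fold change reached 0.33 to each side at the median, or 1.26-fold.

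**Figure D1:**
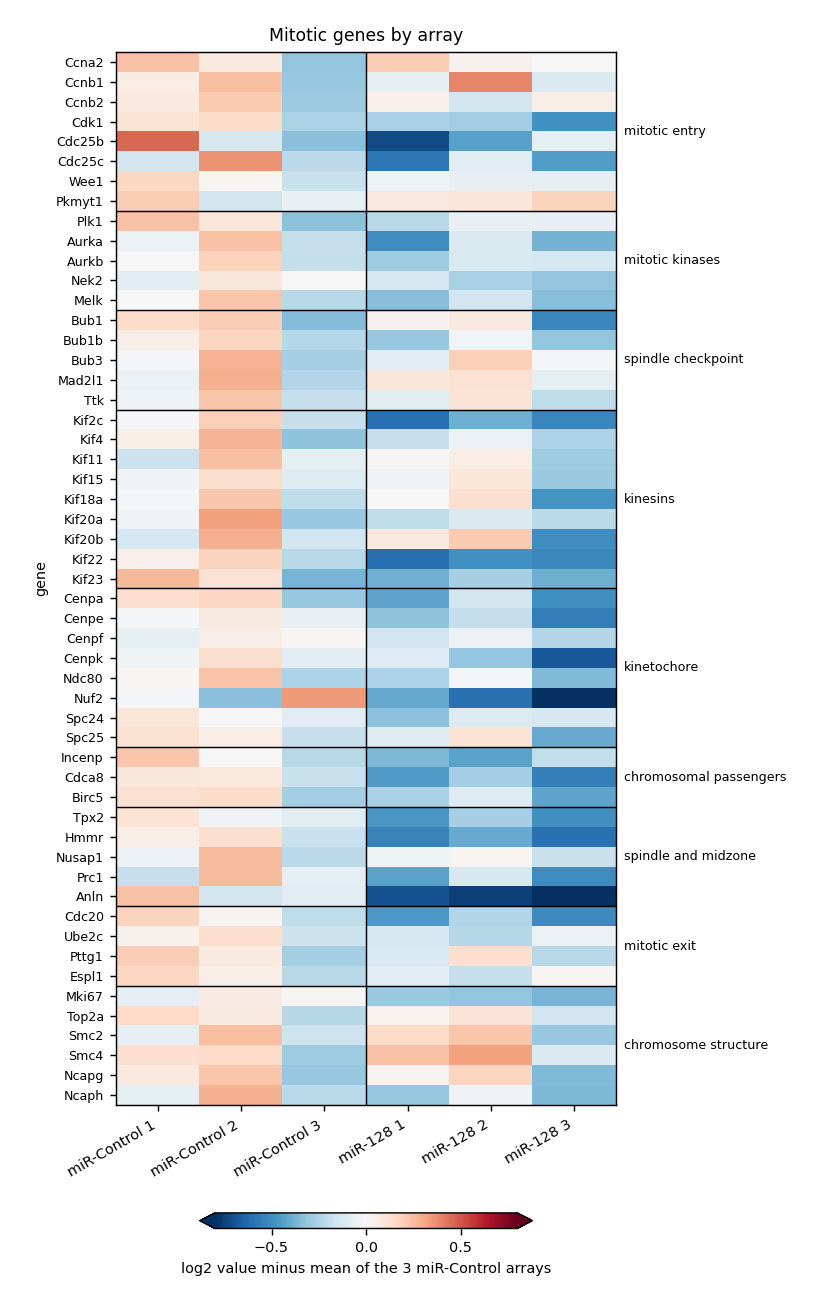
Heat map of 53 mitotic genes (rows, by functional class) in the 6 arrays (columns). Colour is the log2 value minus the mean of the 3 miR-Control arrays, cut at 0.8 to each side; the miR-Control 3 column is mostly blue, with a mean of -0.19, like the miR-128 columns, with means of -0.22, -0.10 and -0.33.

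The 3 controls spanned a wider range of mean mitotic level than the distance between the group means. The mean deviation of the 53 genes from their control means was 0.05, 0.13 and -0.19 for control replicates 1, 2 and 3, and -0.22, -0.10 and -0.33 for the miR-128 ones. In 45 of the 53 genes miR-Control replicate 3 was the lowest of the controls, in 37 it lay at or below the highest miR-128 array, and in 15 it lay below all 3. This array also stood apart over all rows, at 42.5 on the first principal component against -18.7 to -0.226 for the other 5, and had the narrowest interquartile range, 2.87 against 2.98 to 3.22. miR-Control replicate 2 was the highest of all 6 arrays in 34 genes and miR-128 replicate 3 the lowest in 28.

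Counts are therefore also given with single arrays left out. Without miR-Control replicate 3, 51 of the 53 genes (96.2%) were lower with a median of -0.31, and 25 (47.2%) had an unadjusted p under 0.05, while over all rows 39.0% were lower, the median was 0.05 and 5.84% were lower at that p. No gene passed after adjustment in that fit either (0.0% of rows), and the lowest adjusted p of a mitotic gene was 0.242, for Kif22. Only Pkmyt1 and Smc4 had positive values there, at 0.09 and 0.00490. Without miR-Control replicate 2 the median moved the other way, to -0.09, with 39 genes lower and 9 at an unadjusted p under 0.05, and without miR-128 replicate 3 there were 36 lower and 10 at that p. Over all rows the median was 0.00839 without miR-Control replicate 2 and 0.0116 without miR-128 replicate 3. The shares of all rows lower or under that p were not taken for these fits. The groups were separated in 24 genes without miR-128 replicate 2 and in 31 without miR-Control replicate 3. Fewer arrays make such separation easier, and the share of all rows separated was not taken for these fits. These counts therefore cannot be set against the count from all arrays. In 19 of the 53 the sign turned when some single array was left out, and of these Bub1, at -0.14, lay farthest from 0 with all arrays.

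**Figure D2:**
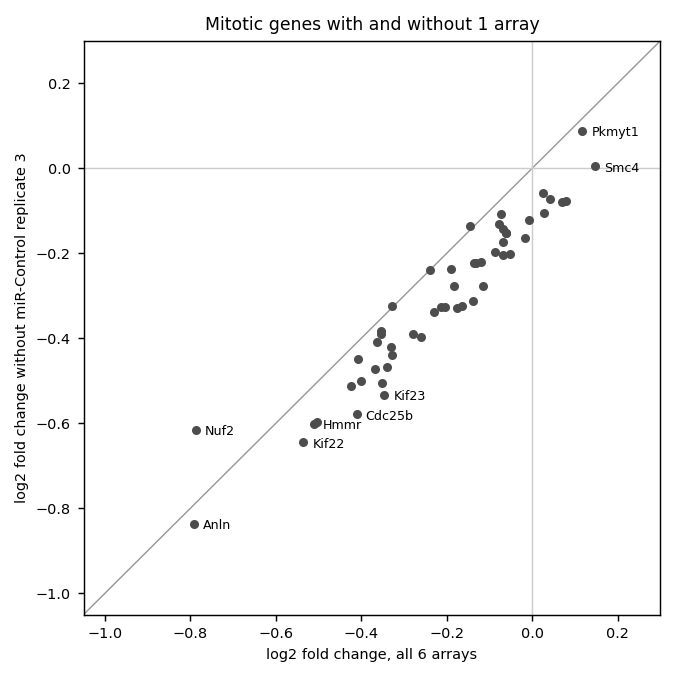
Log2 fold change of each of 53 mitotic genes from all 6 arrays (horizontal) against that without miR-Control replicate 3 (vertical); the diagonal marks equal values. Most points lie below the diagonal, at a median of -0.31 against -0.18, while Nuf2, at -0.62 against -0.79, lies above it.

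The genes of mitotic entry were mixed. This class holds cyclin A2 and the B-type cyclins, their partner Cdk1, the Cdc25 phosphatases that switch Cdk1 on and the kinases Wee1 and Pkmyt1 that hold it off. Of its 8 genes 5 were lower, the median log2 fold change was -0.04, or -0.16 without miR-Control replicate 3, and 1 had an unadjusted p under 0.05. Cdk1, the kinase that drives mitosis, had control values of 10.66, 10.70 and 10.30 and miR-128 values of 10.30, 10.27 and 10.07, on the log2 scale and in the order of replicates 1, 2 and 3, as for all genes that follow. The groups did not overlap, though miR-Control replicate 3 lay only just above the miR-128 arrays, and the log2 fold change of -0.34 (95% interval -0.65 to -0.03, adjusted p = 0.657) equals 1.27-fold lower. Cdc25c, a phosphatase that activates Cdk1, had control values of 9.37, 9.87 and 9.31 and miR-128 values of 8.94, 9.43 and 9.07, a log2 fold change of -0.37 (95% interval -0.78 to 0.04, adjusted p = 0.743). Its miR-128 replicate 2 lay above 2 of the 3 controls.

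The cyclins that bind Cdk1 had values near 0. Ccnb1, cyclin B1, had control values of 9.90, 10.09 and 9.54 and miR-128 values of 9.78, 10.23 and 9.73, and its highest and its lowest array were miR-128 replicate 2 and miR-Control replicate 3. Its log2 fold change was 0.07 (95% interval -0.34 to 0.48). Ccna2 was at 0.08 (95% interval -0.26 to 0.42) and Ccnb2 at -0.02 (95% interval -0.35 to 0.31), and these intervals still hold changes of over 0.3 to the lower side for both B-type cyclins. Ccna2 and Ccnb1 turned to -0.08 each without miR-Control replicate 3 and also turned below 0 under array weights. Pkmyt1, which inhibits Cdk1 at membranes, was at 0.12 and Wee1, which does so in the nucleus, at -0.06. Cdc25b, which acts early in mitotic entry, had the widest controls of the class, with control values of 9.27, 8.69 and 8.48 and miR-128 values of 8.10, 8.38 and 8.73, and a log2 fold change of -0.41 (95% interval -0.92 to 0.10, adjusted p = 0.782).

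All 5 mitotic kinases were lower, with a median of -0.24, and 1 had an unadjusted p under 0.05. Nek2, a kinase that helps split the centrosomes, had control values of 10.25, 10.42 and 10.33 and miR-128 values of 10.20, 10.07 and 10.02, all 3 treated arrays below the controls, with a log2 fold change of -0.24 (95% interval -0.48 to -0.00, adjusted p = 0.698). Aurka, which matures the spindle poles, had control values of 10.69, 10.98 and 10.56 and miR-128 values of 10.24, 10.63 and 10.37. The groups overlapped in miR-128 replicate 2, and the log2 fold change of -0.33 (95% interval -0.67 to 0.00, adjusted p = 0.703) equals 1.26-fold lower. Plk1, a kinase of nearly every step of mitosis, was at -0.11 (95% interval -0.46 to 0.23), with control values of 10.75, 10.61 and 10.19 and miR-128 values of 10.29, 10.46 and 10.45. Its miR-Control replicate 3 was the lowest of the 6, and the difference was 0.00152 without miR-Control replicate 1 and -0.28 without miR-Control replicate 3. Melk, a kinase of proliferating progenitors, was at -0.28 and Aurkb, the kinase of the chromosomal passenger complex, at -0.18.

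The spindle checkpoint genes had small differences between groups. Their proteins hold back anaphase until every kinetochore is attached, with Ttk, Bub1 and Bub1b as kinases or kinase-like proteins and Mad2l1 and Bub3 as parts of the inhibitor of Cdc20. Of the 5, 3 were lower, 0 had an unadjusted p under 0.05 and the median was -0.06. Bub1b had control values of 10.50, 10.62 and 10.22 and miR-128 values of 10.14, 10.42 and 10.13, a log2 fold change of -0.21 (95% interval -0.53 to 0.10, adjusted p = 0.851). Bub1 had control values of 10.28, 10.33 and 9.79 and miR-128 values of 10.17, 10.21 and 9.61, a log2 fold change of -0.14 (95% interval -0.59 to 0.31, adjusted p = 0.966), and 1 array in each group, both of replicate 3, lay well below the others. Without miR-128 replicate 3 its value was 0.05. Ttk was at -0.06, Bub3 at 0.03 and Mad2l1 at 0.04. Bub3 and Mad2l1 turned to -0.11 and -0.07 without miR-Control replicate 3.

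**Figure D3:**
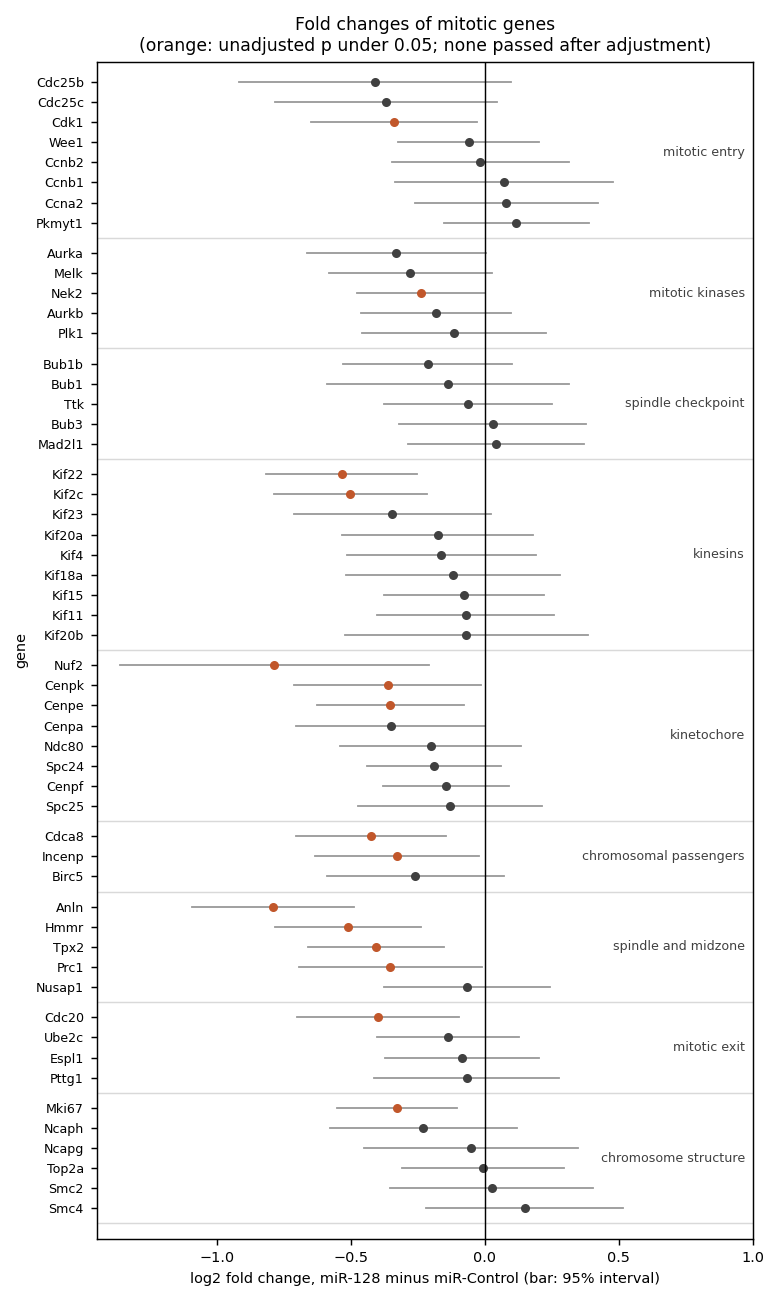
Log2 fold change (horizontal; miR-128 minus miR-Control) of 53 mitotic genes with its 95% interval from limma, by functional class; orange points have an unadjusted p under 0.05. The 15 orange points all lie below 0, from Anln at -0.79 to Nek2 at -0.24, and the 7 genes above 0 lie among the entry, checkpoint and chromosome structure classes.

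All 9 measured kinesins were lower, and in 2 of them the groups were separated. Kinesins are motors that walk along or take apart microtubules. Kif22, which pushes chromosome arms away from the poles, had control values of 9.64, 9.78 and 9.39 and miR-128 values of 8.999, 9.12 and 9.09. Every miR-128 array lay below every control, with means of 9.60 ± 0.20 for miR-Control against 9.07 ± 0.06 for miR-128 (SD, n = 3), and the log2 fold change of -0.54 (95% interval -0.82 to -0.25, adjusted p = 0.391) equals 1.45-fold lower. Kif2c, which removes tubulin from microtubule ends at the centromere, had control values of 10.59, 10.79 and 10.41 and miR-128 values of 10.01, 10.21 and 10.08, again with no overlap. It was 1.42-fold lower, a log2 fold change of -0.50 (95% interval -0.79 to -0.22, adjusted p = 0.416). Leaving out any 1 array kept Kif22 between -0.64 and -0.45 and Kif2c between -0.60 and -0.41.

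The other kinesins lay between -0.35 and -0.07, with overlapping groups. Kif23, the motor of the centralspindlin complex at the midzone, was at -0.35 and Kif20a, which carries regulators to the midzone, at -0.18. Kif4, a chromosome-bound motor, was at -0.16, and Kif18a, which dampens chromosome movement, at -0.12. Kif11, the motor that pushes the spindle poles apart, was at -0.07, Kif15, which backs it up, at -0.08 and Kif20b at -0.07. Without miR-128 replicate 3, the array that was lowest for each of these last 4, Kif18a, Kif11, Kif15 and Kif20b turned to values between 0.03 and 0.14. The class median was -0.16 with all arrays and -0.32 without miR-Control replicate 3.

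All 8 kinetochore genes were lower, with a median of -0.28, and in 4 of them the groups did not overlap. Nuf2, which with Ndc80, Spc24 and Spc25 forms the complex that grips microtubules, had control values of 10.16, 9.84 and 10.52 and miR-128 values of 9.76, 9.57 and 8.82. It was the only gene of the 53 whose highest array was miR-Control replicate 3, and its spread was wide, with means of 10.17 ± 0.34 for miR-Control against 9.39 ± 0.50 for miR-128 (SD, n = 3) and a log2 fold change of -0.79 (95% interval -1.36 to -0.21, adjusted p = 0.547). Its partners in the complex had log2 fold changes of -0.20 for Ndc80, -0.19 for Spc24 and -0.13 for Spc25. Without miR-128 replicate 3, the lowest array, Nuf2 was at -0.50 and Spc25 at 0.00481. Cenpe, a motor that carries chromosomes to the spindle equator, had control values of 9.25, 9.34 and 9.21 and miR-128 values of 8.95, 9.08 and 8.72, with no overlap, and a log2 fold change of -0.35 (95% interval -0.63 to -0.08, adjusted p = 0.581).

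The remaining kinetochore genes were at -0.35 for Cenpa, the histone H3 variant that marks the centromere, -0.36 for Cenpk, a subunit of the inner kinetochore, and -0.14 for Cenpf, a large outer protein of late cell cycle. Cenpk was lower without overlap and Cenpf had the narrowest interval of these, -0.38 to 0.09.

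The chromosomal passenger genes Incenp, Cdca8 and Birc5, which hold and target Aurkb, were all lower, with a median of -0.33. Cdca8, also called borealin, had control values of 10.34, 10.33 and 10.07 and miR-128 values of 9.80, 9.98 and 9.70, with all miR-128 arrays below the controls, and a log2 fold change of -0.42 (95% interval -0.70 to -0.14, adjusted p = 0.482). Incenp, the scaffold of the complex, had control values of 9.71, 9.49 and 9.26 and miR-128 values of 9.12, 9.06 and 9.28, where miR-128 replicate 3 lay just above miR-Control replicate 3, and a log2 fold change of -0.33 (95% interval -0.64 to -0.02, adjusted p = 0.673). Birc5, or survivin, was at -0.26 (adjusted p = 0.789), and a further transcript row of it at -0.30. The means of the class by array were 0.15, 0.08 and -0.22 for control arrays against -0.36, -0.27 and -0.39 for miR-128 arrays, and they did not overlap.

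The spindle and midzone class had the lowest median, -0.41, and its groups were separated in 3 of 5 genes, Anln, Hmmr and Tpx2. Anln, anillin, a scaffold that ties actin, myosin and septins together in the cleavage furrow, had control values of 10.31, 9.92 and 9.98 and miR-128 values of 9.38, 9.32 and 9.14. It was 1.73-fold lower, with means of 10.07 ± 0.21 for miR-Control against 9.28 ± 0.13 for miR-128 (SD, n = 3) and a log2 fold change of -0.79 (95% interval -1.09 to -0.49, adjusted p = 0.201), and stayed between -0.87 and -0.67 when any 1 array was left out. Its adjusted p was lowest, at 0.0522, under limma's array weights, and next at 0.0531 among rows above the median level. In limma it was 0.480 with arrays centred on their medians and 0.827 without miR-128 replicate 1. Hmmr, a microtubule-bound protein of the spindle poles, had control values of 9.44, 9.53 and 9.21 and miR-128 values of 8.86, 8.99 and 8.79, a log2 fold change of -0.51 (95% interval -0.78 to -0.24, adjusted p = 0.391), with every treated array under every control. Tpx2, which activates Aurka on the spindle, was at -0.41 (adjusted p = 0.456). Prc1, which bundles the midzone microtubules, was at -0.35 (adjusted p = 0.685) with overlapping groups, and Nusap1, a microtubule-binding protein of the spindle, at -0.07.

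**Figure D4:**
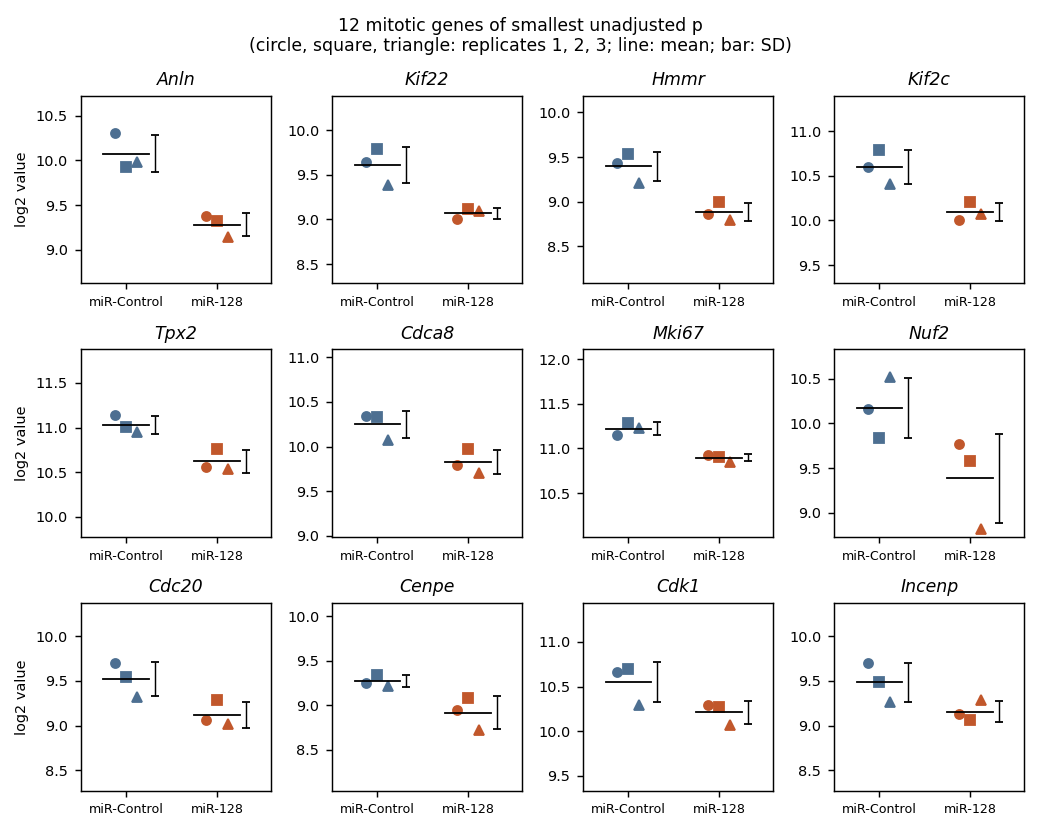
Log2 values of the 12 mitotic genes of smallest unadjusted p in each array (circle, square and triangle for replicates 1, 2 and 3), with the group mean (line) and SD (bar, n = 3). Panels share a span of 2.1 log2 units; in 11 of the 12 the miR-128 arrays lie below all controls, while in Incenp the groups overlap slightly.

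All 4 genes of mitotic exit were lower, with a median of -0.11. Exit is driven by the anaphase-promoting complex, a ubiquitin ligase that Cdc20 activates and Ube2c supplies, and that destroys securin (Pttg1) to free separase (Espl1). Cdc20 had control values of 9.70, 9.54 and 9.32 and miR-128 values of 9.06, 9.29 and 9.01. The miR-128 arrays lay below the controls, with replicate 2 only just so, and the log2 fold change of -0.40 (95% interval -0.70 to -0.10, adjusted p = 0.570) equals 1.32-fold lower. Ube2c had control values of 10.91, 11.01 and 10.71 and miR-128 values of 10.74, 10.65 and 10.83, with overlap, a log2 fold change of -0.14 (95% interval -0.40 to 0.13, adjusted p = 0.922). Pttg1 was at -0.07 and Espl1 at -0.09.

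In the chromosome structure class Mki67 had the lowest log2 fold change. Mki67 encodes the Ki-67 protein that coats mitotic chromosomes and is the usual marker of dividing cells. It had control values of 11.15, 11.29 and 11.23 and miR-128 values of 10.93, 10.91 and 10.85. Both groups were tight, with means of 11.22 ± 0.07 for miR-Control against 10.89 ± 0.04 for miR-128 (SD, n = 3), and the log2 fold change of -0.33 (95% interval -0.55 to -0.11, adjusted p = 0.502) equals 1.26-fold lower, between -0.36 and -0.30 when any 1 array was left out. Top2a, the topoisomerase that untangles sister chromosomes and another common marker of division, had control values of 12.01, 11.93 and 11.63 and miR-128 values of 11.88, 11.96 and 11.71. Its log2 fold change was -0.01 (95% interval -0.31 to 0.29), with miR-Control replicate 3 again the lowest array. The condensin genes differed in sign, with Ncaph at -0.23, Ncapg at -0.05, Smc2 at 0.02 and Smc4 at 0.15. Ncaph, the subunit that closes the condensin ring, had control values of 9.93, 10.29 and 9.79 and miR-128 values of 9.70, 9.97 and 9.64, a log2 fold change of -0.23 (95% interval -0.58 to 0.12, adjusted p = 0.864), and its groups overlapped. Smc2 turned to -0.00335 when arrays were centred on their medians.

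**Figure D5:**
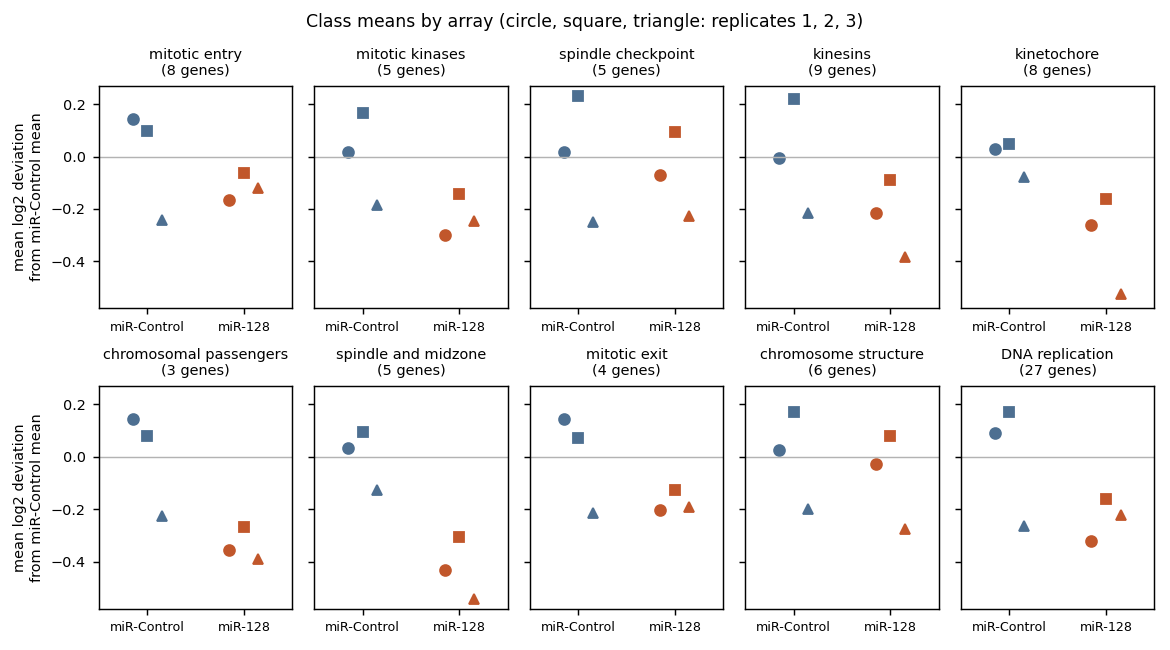
Mean deviation of each functional class of mitotic genes, and of the DNA replication list, from its miR-Control mean (vertical, log2), for each array (circle, square and triangle for replicates 1, 2 and 3). In the kinetochore, chromosomal passenger and spindle and midzone classes the miR-128 points lie below every control, while in the other classes miR-Control replicate 3 lies at or below at least 1 of them.

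Side by side, class medians ran from -0.41 for spindle and midzone genes and -0.33 for chromosomal passengers to -0.04 for mitotic entry and -0.03 for chromosome structure, and the differences between classes were not tested. In the checkpoint class the means by array were 0.02, 0.23 and -0.25 for control arrays against -0.07, 0.09 and -0.23 for miR-128 arrays, and in the spindle and midzone class 0.03, 0.09 and -0.13 for control arrays against -0.43, -0.31 and -0.54 for miR-128 arrays. miR-Control replicate 3 was the lowest control in both.

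Where a mitotic gene had several transcript rows, the rows gave like values. Of the 53 genes 10 had more than 1 row, and for 9 of them the rows held different values. The log2 fold changes of these rows differed by at most 0.04 within a gene and never in sign. Rows of a gene can share probes, so this is a check of the choice of row and not a replication.

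Other genes of mitosis, from lists that do not hold the 53, had a smaller median difference, which was not tested against that of the 53. Of 119 measured genes in 5 such lists 91 were lower, 10 had an unadjusted p under 0.05 and were lower, 0 were higher at that p, and the median log2 fold change was -0.08. None passed after adjustment. For these lists the shares over all rows are 43.2% lower and 3.11% lower at that p. Over rows above the median level they are 47.9% and 5.13%. Among regulators of mitotic transcription and entry 24 of 26 were lower, with a median of -0.11. Mybl2, the MYB factor that works with MuvB on mitotic promoters, had control values of 9.01, 9.10 and 8.98 and miR-128 values of 8.34, 8.65 and 8.73, a log2 fold change of -0.45 (95% interval -0.74 to -0.17, adjusted p = 0.456). Every miR-128 array of Mybl2 lay below every control.

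Among other kinetochore genes 23 of 30 were lower, led by Mis18a, which prepares centromeres for new Cenpa, at -0.78 (adjusted p = 0.478), and Cenpt, which links DNA to the Ndc80 complex, at -0.45 (adjusted p = 0.518). Among other spindle and cytokinesis genes 23 of 29 were lower. Aspm, a spindle pole protein of neural progenitors, was at -0.41 (adjusted p = 0.478) and Haus8, a subunit of the augmin complex that branches microtubules, at -0.29 (adjusted p = 0.611). The anaphase-promoting complex and its regulators had 13 of 19 lower, with a median of -0.03, its subunit Anapc5 at -0.62 (adjusted p = 0.435) and the checkpoint protein Mad1l1 at -0.14. Cohesin, the ring that holds sister chromatids together, had 8 of 15 lower and a median of -0.01, although its core subunit Smc1a was at -0.72 (adjusted p = 0.465) and Cdca5, or sororin, at -0.29.

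DNA replication genes, the other wave of the cell cycle, were low on many of the same arrays. All 27 measured genes were lower, 5 of them at an unadjusted p under 0.05, with a median of -0.23 against -0.18 for the mitotic genes. Over rows above the median level, where all 27 lie, 47.9% were lower and 5.13% were lower at that p. Their means by array were 0.09, 0.17 and -0.26 for control arrays against -0.32, -0.16 and -0.22 for miR-128 arrays, so miR-Control replicate 3 again lay among the miR-128 arrays. The 2 of smallest p were Pola1, the catalytic subunit of the primase polymerase, at -0.53, and Fen1, which trims lagging-strand fragments, at -0.55. The difference between the replication and mitotic lists was not tested.

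Markers of the labelled cell type were present. Of 10 markers of neural stem cells 9 lay above the median row on every array, among them the defining genes Sox2 and Nes, and Prom1 was the exception. None of 8 microglial markers did so, and 3 of 10 neuronal, 6 of 8 astrocyte, 5 of 8 oligodendrocyte lineage and 3 of 8 vascular and mesenchymal markers did. Beside the lower mitotic values, 7 of 8 oligodendrocyte lineage markers were higher, with a median of 0.24 and a mean level of 8.46 to 8.58 in the controls and 8.68 to 8.82 with miR-128. Astrocyte markers were higher in 6 of 8, with mean levels of 8.86 to 8.95 and 8.97 to 9.04. Among them S100b and Slc1a2 had every miR-128 array above every control. The other 2, Gja1 at -0.29 and Aldoc at -0.19, had every miR-128 array below every control. Microglial markers were higher in 8 of 8, at a median of 0.05. Their mean levels were low and overlapped, at 6.22 to 6.34 in the controls and 6.29 to 6.39 with miR-128. Vascular and mesenchymal markers were higher in 5 of 8, at a median of 0.01. Over all rows 43.2% were lower, and the share among rows at the level of the microglial markers was not taken. Stem cell markers were at a median of 0.02, with 5 of 10 lower and a range from -0.30 for Nes to 0.33 for Hes5. Neuronal markers were at a median of 0.00, with 5 of 10 lower and a range from -0.41 for Gap43 to 0.24 for Dcx. None of these markers passed after adjustment, and their part in the mitotic values was not tested.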

How the data were processed

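RNA of 6 cultures was measured on exon arrays. The authors deposited log2 expression values. The submitters' processing notes name RMA and affy as tools; their versions, the probe grouping and the genome build were not given in sources used here. RMA corrects background, equalises arrays and summarises probes, and tends to shrink fold changes. The deposited arrays were not fully equal, with row medians from 7.40 for miR-Control replicate 2 to 7.54 for miR-Control replicate 3. No detection call was used, so signal over background is unknown, and the number of arrays limits precision. Row accessions were matched without versions to the RefSeq table of GRCm38.p6, which named 25343 of 32025 rows.

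Groups came from sample titles. limma 3.58.1 in R 4.3.3 (lmFit, eBayes) compared miR-128 with miR-Control on all rows, unpaired, two-sided and unfiltered, with Benjamini-Hochberg adjustment over all rows and a threshold of 0.05. Fold changes are miR-128 minus miR-Control, ± is the SD over 3 arrays, and the procedure was tested on simulated data. The simulated rows were independent and equally variable on every array. The simulation therefore did not imitate an array that stands apart, such as miR-Control replicate 3. The labels call replicates biological without saying from which embryos, so p-values measure the spread between these samples. The members and lists were chosen with earlier results of these data known. Values by array are given for the 2 genes of smallest p in each of 9 classes and for genes fixed by name; the 2 genes of smallest p are named for each related list, except 1 that is not reported here. Alternatives were quantile normalization, median centring, rows above the median level, array weights, trended robust eBayes, a replicate block, the mean of a gene's rows and leaving out each array.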

Additional observations from a re-analysis of the deposited data

How the results depend on the processing

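Of the 53 mitotic genes 34 kept their direction under all 13 alternatives, and 32 were lower in each. None passed after adjustment in any of them, with a lowest adjusted p of 0.0522. Under array weights 24 rows of the table passed, and among rows above the median level 4 did, none of them a mitotic gene, and array weights gave -0.0356 for Ccna2, -0.0127 for Ccnb1, -0.0285 for Bub3, 0.0213 for Kif11 and 0.0326 for Kif20b, which have the opposite sign in the unweighted fit. Centring arrays on their medians gave Smc2 -0.00335. The cause of these turns was not tested. With 1 array left out, the number of rows passing and of mitotic genes passing stayed at 0, the number lower ran from 36 to 51, the median from -0.31 to -0.09 and the number with separated groups, miR-128 lower, from 14 to 31. Fewer arrays make such separation easier. The share of all rows lower was taken only for the fit without miR-Control replicate 3, and the share separated for none of these fits. Over the same fits the log2 fold changes of genes that changed sign were Ccna2 -0.0777 to 0.20, Ccnb1 -0.0898 to 0.19, Ccnb2 -0.16 to 0.0886, Wee1 -0.15 to 0.0221, Plk1 -0.28 to 0.00152, Bub1 -0.31 to 0.0537, Bub3 -0.11 to 0.17, Mad2l1 -0.0733 to 0.19, Ttk -0.15 to 0.0497, Kif11 -0.16 to 0.0486, Kif15 -0.17 to 0.0310, Kif18a -0.24 to 0.0606, Kif20b -0.21 to 0.14, Spc25 -0.25 to 0.00481, Nusap1 -0.17 to 0.0592, Pttg1 -0.20 to 0.0289, Top2a -0.12 to 0.0715, Smc2 -0.0728 to 0.19 and Ncapg -0.20 to 0.0979. Whether equal replicate numbers mark paired samples is not stated in the labels. Over all rows, deviations of same-numbered arrays from their group means correlated at -0.00278, 0.17 and 0.05. Of the 6 arrays 3 correlated best with their own number. With 3 arrays a group these values cannot decide whether samples were paired. Among the 53 genes replicate 2 was the highest of its group in 36 for miR-Control and 39 for miR-128. Replicate 3 was the lowest of its group in 45 and 38. With a replicate block 0 rows and 0 mitotic genes passed, 46 were lower, the median was -0.18 and 18 had an unadjusted p under 0.05 against 15. Over the alternatives that kept all arrays this count moved both ways, from 12 with median centring to 22 with array weights. The share of all rows under that p was not taken for the replicate block, median centring or array weights.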
